A study of Homo sapiens with 6 samples.

Results

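The SLC25 genes encode the mitochondrial carriers, and here they were taken as the protein-coding genes whose symbol begins with SLC25A. There were 48 of them among the 60504 genes measured. Transcript counts came from WM164, a human melanoma cell line with the BRAF V600E mutation, in 3 libraries with an empty expression vector (EV) and 3 with an HDAC8 expression vector. HDAC8 is a class I histone deacetylase, and the comparison asked which carrier transcripts differed between the groups. Cells of both groups had been transfected and kept in hygromycin, so the controls carry a vector and the selection too. The promoter of the vector and whether the cells were clones are not given in the sources used here. The labels number the libraries of a group as bioreps, and nothing says that they came from separate cultures, so p-values measure the spread between these samples, which may be technical.

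Mitochondrial carriers sit in the inner mitochondrial membrane, which few solutes cross unaided. They exchange nucleotides, phosphate, organic acids, amino acids, cofactors and metal ions between the cytosol and the matrix, usually by alternately opening to one side and then the other. All are encoded in the nucleus and imported into the organelle. A few relatives work elsewhere, such as SLC25A17 in the peroxisome and SLC25A46 in the outer membrane. In melanoma cells, as in other dividing cells, carriers link respiration in the matrix to biosynthesis in the cytosol.

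Total counts ran from 34741083 to 42041462 per library and overlapped between the groups, and 3 counts corresponded to 2.57 to 3.27 normalized counts. The vector's own gene did not check the labels. HDAC8 transcript had 383.8, 404.4 and 478.8 normalized counts in EV, against 484.8, 445.5 and 473.7 where the label was HDAC8. The groups overlapped, and the log2 fold change was 0.15 (DESeq2 adjusted p = 0.856). In what follows, HDAC8 therefore stands for the libraries labelled HDAC8. Transcripts encoded in the mitochondrial genome took 9.66% to 12.8% of the counts in EV and 4.46% to 7.94% in HDAC8. Of 8 melanocytic markers, 5 were called lower and 0 higher, where 5.44% and 5.57% of all genes were. Their summed normalized counts were 244960.5 to 328760.6 in EV and 137043.0 to 182218.1 in HDAC8, most of it from a single marker. By this sum, melanocytic transcripts were plentiful in both groups, as the label of a melanoma line asks, though lower in HDAC8. The sum does not show how far each marker changed. Among markers of other cells, DCN, KRT1 and CDH5 were at 0 in every library, but others of their lists were detected. Keratinocyte markers summed to 146.6 to 280.0 in EV and 165.5 to 176.2 in HDAC8, most of it KRT10. Endothelial markers summed to 97.5 to 202.9 in EV and 114.3 to 218.0 in HDAC8, most of it VWF. The sum over 5 fibroblast markers was 2357.2 to 2852.2 in EV and 1148.4 to 2187.6 in HDAC8, most of it LUM. The sum over leukocyte markers was 0 to 14.7 in EV and 50.1 to 111.6 in HDAC8, mostly from CD3E, which had no count in EV, while PTPRC, which marks leukocytes in general, did not exceed 2.57. The part of these differences in the carrier results was not tested, except that leaving out the mitochondrially encoded genes left the same 4 carriers called.

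Expression of the carriers as a whole differed little. Of the 48 genes, SLC25A31 (an ADP/ATP carrier of the male germ line), SLC25A48 and SLC25A52 had no count in any library, and SLC25A2, a relative of the mitochondrial ornithine carrier, had counts only in EV replicate 2 (8.41 normalized counts). The other 44 were tested, and 43 received an adjusted p. SLC25A41, a short relative of the ATP-Mg/phosphate carriers, was tested without one, at 0 in every EV library and at 12, 2.05 and 0 in HDAC8. A gene was called where its log2 fold change was 0.58 or more, up or down, with a Benjamini-Hochberg adjusted p under 0.05. By this rule 1 carrier was higher (SLC25A37), 3 were lower (SLC25A30, SLC25A4 and SLC25A44) and 39 were not called. The called share was 9.30% of the carriers, against 11% of all 21021 genes with an adjusted p, of which 5.57% were called higher and 5.44% lower. The carriers were thus called at about the rate of genes in general.

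The sizes of the changes gave the same picture. The median log2 fold change over the 44 carriers was -0.03, with 24 below 0 and 20 above, against -0.00 over all 26162 genes tested and 0.01 over the 15630 protein-coding ones. In 41 carriers the mean was at least 50 normalized counts, and their log2 fold changes ran from -1.04 to 0.76. The groups did not overlap in 9 carriers (20.5%), of which 8 were lower and 1 was higher, while 24% of all genes tested had groups that did not overlap. How those genes divided into lower and higher was not computed. At an adjusted p under 0.05 with no fold change minimum, SLC25A3 joined the 4 called carriers, so that 5 passed, against 13% of all genes. An unadjusted p under 0.05 was reached by 8 carriers, the others being SLC25A24, SLC25A32 and SLC25A46. The share of all genes with such a p was not computed, so this count is not set against genes in general. In 10 of the 41 carriers (24.4%) the 95% interval lay within 0.58 of 0 on the log2 scale, so that a change of the called size was outside it; the same held for 18.6% of the 14439 genes with such a mean.

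**Figure D1:**
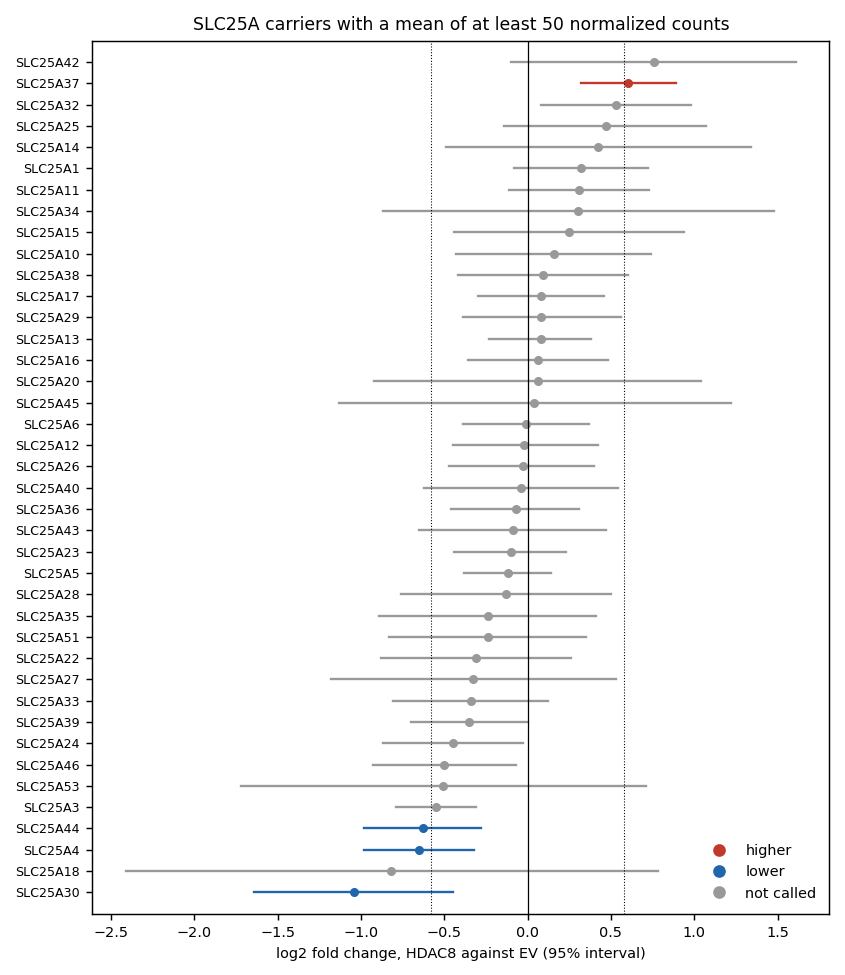
Log2 fold change of 40 of the 41 carriers with a mean of at least 50 normalized counts (horizontal axis, HDAC8 against EV), with its 95% interval as a bar and dotted lines at 0.58 above and below 0. SLC25A37 was the 1 carrier called higher, SLC25A30, SLC25A4 and SLC25A44 were called lower, and most intervals cross 0; SLC25A42 and SLC25A18 lie beyond a dotted line with intervals that cross 0.

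As a share of all counts the family overlapped between the groups. The carriers together took 0.200%, 0.198% and 0.181% of the counts in EV and 0.194%, 0.181% and 0.180% in HDAC8. When the mitochondrially encoded transcripts were left out of the total, the share was 0.217% ± 0.00839 (SD, n = 3) in EV and 0.198% ± 0.00458 in HDAC8, and the groups did not overlap (0.207% to 0.222% against 0.194% to 0.203%). On the log2 scale the median carrier deviated from the EV mean by -0.02, 0.08 and -0.04 in EV and by -0.10, -0.04 and 0.00 in HDAC8, which overlap. Carrier transcripts varied somewhat more among the HDAC8 libraries, with a median coefficient of variation of 20.4% against 16.3% in EV. HDAC8 replicate 1 was the replicate farthest from the others of its group in 20 of the 41 carriers, HDAC8 replicate 2 in 11 and HDAC8 replicate 3 in 10. It also stood apart over the whole set of genes. There its chi-square per degree of freedom was 153 against HDAC8 replicate 2 and 102 against HDAC8 replicate 3, while those replicates gave 26 between them.

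The ADP/ATP carriers, which bring ADP into the matrix and take ATP out, were examined first. SLC25A4 is the form typical of heart and skeletal muscle, SLC25A5 that of dividing cells, and SLC25A6 is widely expressed. Their promoters are shown because the genes encode closely similar proteins, and of the 3 SLC25A4 was the one called. The 250 bases before the RefSeq gene start are given for SLC25A4 (chr4:185143016-185143265, plus strand), SLC25A5 (chrX:119468194-119468443, plus strand) and SLC25A6 (chrX:1392114-1392363, minus strand), in GRCh38.p14 and in the direction of transcription. Capitals mark each match to CCAAT, searched on both strands, and to TATAAN, searched on the strand shown.
SLC25A4: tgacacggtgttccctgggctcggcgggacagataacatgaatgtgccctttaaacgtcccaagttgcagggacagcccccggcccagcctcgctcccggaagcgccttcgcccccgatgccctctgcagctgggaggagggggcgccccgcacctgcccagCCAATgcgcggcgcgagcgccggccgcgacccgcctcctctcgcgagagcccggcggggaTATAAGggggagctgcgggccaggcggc
SLC25A5: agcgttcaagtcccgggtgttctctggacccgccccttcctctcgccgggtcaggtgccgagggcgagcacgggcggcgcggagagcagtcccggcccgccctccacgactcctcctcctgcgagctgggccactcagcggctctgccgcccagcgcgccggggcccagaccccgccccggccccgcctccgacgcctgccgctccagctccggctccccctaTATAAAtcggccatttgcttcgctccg
SLC25A6: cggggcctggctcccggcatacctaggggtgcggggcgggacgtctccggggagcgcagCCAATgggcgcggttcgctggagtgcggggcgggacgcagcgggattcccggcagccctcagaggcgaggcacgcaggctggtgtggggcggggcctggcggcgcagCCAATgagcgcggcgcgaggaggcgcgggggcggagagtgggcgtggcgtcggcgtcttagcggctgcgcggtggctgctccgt
The SLC25A4 window held a CCAAT at positions -88 to -84 from the gene start and a TATAAN at -28 to -23. The SLC25A5 window held a TATAAN at -27 to -22 and no CCAAT. Positions count from the RefSeq start, and the GENCODE start given below for SLC25A5 (119468422) lies inside its window. The SLC25A6 window held a CCAAT at -191 to -187 and another at -84 to -80, and no TATAAN. GC content was 71.6%, 73.6% and 76.8% in that order. In the RefSeq promoter table, whose windows run a little past the gene start, 40 of the 48 carriers had an entry. CCAAT was in 47.5% of these carriers and in 34.6% of all 35116 windows, and TATAAN was in 12.5% and 14.8%. The E-box CACGTG was in 17.5% of the carriers and 7.26% of all windows, the M-box CATGTG in 7.5% and 11.1%, and none of the 40 held AP-1 (TGANTCA, in 7.71% of all windows) or the NRF1 core (GCGCATGC, in 3.05%). These are matches of letters in the window, not sites shown to be bound.

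SLC25A4 fell and the other two ADP/ATP carriers did not pass the test. SLC25A4 (ENSG00000151729, GRCh38 chromosome 4, 185143266 to 185150382, plus strand) had 2400.2, 2643.0 and 2288.4 normalized counts in EV and 1663.1, 1545.4 and 1477.7 in HDAC8. Each HDAC8 library was below each EV library. The mean went from 2443.9 ± 181.3 to 1562.1 ± 93.8 (SD, n = 3). On the log2 scale this was -0.65 (95% interval -0.98 to -0.32, SE 0.17, DESeq2 adjusted p = 0.0021). SLC25A4 was the 1 carrier called under every alternative run, with log2 fold changes from -0.70 to -0.59. SLC25A5 (chromosome X, 119468422 to 119471396, plus strand), the most abundant carrier per kilobase of transcript, had 13157.7, 14567.2 and 12410.5 normalized counts in EV and 13092.2, 12431.1 and 11406.7 in HDAC8. The groups overlapped, and the log2 fold change was -0.12 (95% interval -0.38 to 0.14, DESeq2 adjusted p = 0.685). This interval overlaps that of SLC25A4, so the intervals alone do not separate the changes of these genes. SLC25A6 (chromosome X, 1386152 to 1392113, minus strand, in the pseudoautosomal region) had 5412.9, 7172.6 and 5340.4 normalized counts in EV and 7568.3, 4624.0 and 5580.9 in HDAC8. Its HDAC8 values lay on both sides of those of EV (log2 fold change -0.01, 95% interval -0.39 to 0.37, DESeq2 adjusted p = 0.986).

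The balance between these forms was compared within each library, where scaling between libraries plays no part. SLC25A4 made up 3.79%, 3.59% and 3.79% of the ADP/ATP carrier transcripts per kilobase in EV and 2.41%, 2.68% and 2.59% in HDAC8. It was a minor form in every library, and the groups did not overlap. These shares depend on the transcript lengths taken (4415 bases for SLC25A4, 1307 for SLC25A5 and 1451 for SLC25A6). SLC25A5 took 68.8% ± 1.76 (SD, n = 3) in EV and 68.2% ± 4.38 in HDAC8, and SLC25A6 took 27.5% ± 1.87 and 29.2% ± 4.53, with overlapping groups for both. The log2 ratio of SLC25A4 to SLC25A5 was -4.21, -4.22 and -4.20 in EV and -4.73, -4.76 and -4.70 in HDAC8, a difference of -0.53. The spread within a group was far smaller than this difference. The exact two-sided permutation test gave p = 0.1, the smallest that 3 against 3 allows, and 0.48 after adjustment over 12 carrier pairs. SLC25A5 has many processed pseudogenes, which are counted as genes of their own. Their summed counts came to 1.41% to 2.69% of the size of the SLC25A5 count in EV and 0.371% to 1.14% in HDAC8.

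**Figure D2:**
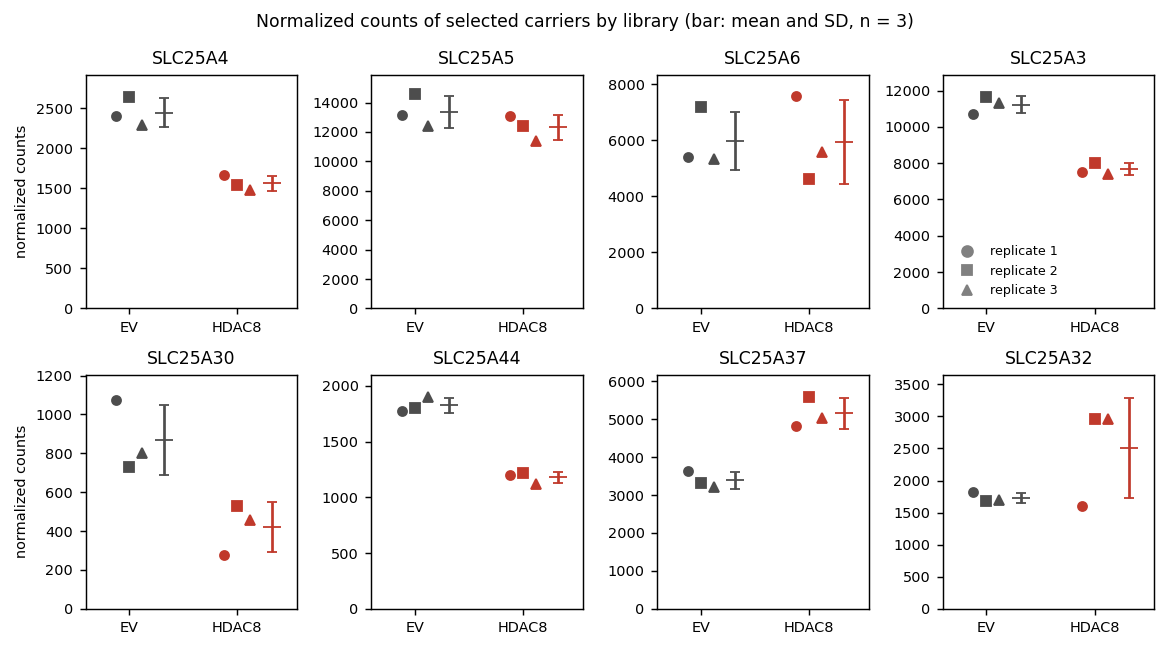
Normalized counts (vertical axes, from 0) of 8 carriers in each library, with marker shape giving the replicate and a bar the mean and SD of 3 libraries. The groups are apart for SLC25A4, SLC25A3, SLC25A30, SLC25A44 and SLC25A37, overlap for SLC25A5 and SLC25A6, and for SLC25A32 HDAC8 replicate 1 sits with EV at 1598.1.

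Phosphate for ATP synthesis enters the matrix through SLC25A3, which also carries copper. SLC25A3 (chromosome 12, 98593591 to 98606379, plus strand) had 10708.3, 11652.7 and 11324.0 normalized counts in EV and 7535.8, 8031.4 and 7425.6 in HDAC8. The HDAC8 libraries lay close together and well below the EV libraries. The mean was 11228.3 ± 479.4 against 7664.3 ± 322.7 (SD, n = 3), with a log2 fold change of -0.55 (95% interval -0.79 to -0.31, SE 0.12, DESeq2 adjusted p = 2.23e-04). This was the smallest adjusted p of the family, but the fold change stayed just short of the 0.58 minimum, so SLC25A3 stayed uncalled. It reached -0.59 and was called without EV replicate 1, and -0.58 without HDAC8 replicate 2. Together with the ADP/ATP carriers, of which SLC25A4 was a minor form, SLC25A3 supplies the substrates of ATP synthase. Of 2 subunit genes of that enzyme, ATP5F1A and ATP5F1B, 0 were called (11% of all genes were). Their log2 fold changes were -0.09 and -0.30 (DESeq2 adjusted p = 0.807 and 0.108). A small nucleolar RNA gene, SNORA53, overlaps SLC25A3 on the same strand and had a mean of 57.1 normalized counts in EV and 20.8 in HDAC8, which is little beside the counts of the host.

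The ATP-Mg/phosphate carriers, which change the matrix adenine nucleotide pool in response to calcium, did not pass the test. SLC25A24 had 1863.6, 1758.3 and 1974.6 normalized counts in EV and 1065.4, 1753.3 and 1281.1 in HDAC8. The groups did not overlap, but HDAC8 replicate 2 came to just under the lowest EV library, and the adjusted p was 0.173 (DESeq2, log2 fold change -0.45, SE 0.22). Without HDAC8 replicate 2 the log2 fold change was -0.66 and SLC25A24 was called (DESeq2 adjusted p = 0.0157). SLC25A23 had 2756.8, 3283.7 and 2797.8 in EV and 2309.6, 2921.9 and 2997.9 in HDAC8 (log2 fold change -0.10, 95% interval -0.44 to 0.23). SLC25A25 had 459.3, 643.7 and 432.0 in EV and 970.0, 587.8 and 563.4 in HDAC8 (log2 fold change 0.47, 95% interval -0.14 to 1.07), and HDAC8 replicate 1 alone was above the EV libraries. The log2 ratio of SLC25A25 to SLC25A24 was higher in HDAC8 by 0.92 on average, the largest difference among the 12 pairs, but it ran from -1.27 to 0.17 there and from -1.89 to -1.14 in EV (exact two-sided permutation p = 0.2, adjusted 0.48).

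Among relatives of the uncoupling proteins, SLC25A30 fell by more than any other called carrier. SLC25A30 (chromosome 13, 45393316 to 45418455, minus strand), first described in kidney mitochondria, had 1074.8, 731.3 and 801.9 normalized counts in EV and 278.8, 530.5 and 457.4 in HDAC8. The groups did not overlap, although the libraries within each group differed widely. The mean was 869.3 ± 181.4 against 422.2 ± 129.5 (SD, n = 3), with a log2 fold change of -1.04 (95% interval -1.64 to -0.45, SE 0.30, DESeq2 adjusted p = 0.00784). The call was lost without EV replicate 1, the highest library (log2 fold change -0.86, DESeq2 adjusted p = 0.137). On the opposite strand the gene overlaps TPT1-AS1, whose mean was 727.1 in EV and 465.5 in HDAC8, and SLC25A30-AS1, at 5.17 and 11.2. Whether the counting used strand is not stated. SLC25A14, a relative with high levels in brain, had 162.5, 156.9 and 224.6 normalized counts in EV and 123.1, 329.8 and 277.7 in HDAC8 (DESeq2 adjusted p = 0.693). SLC25A27, another such relative, had 461.4, 279.2 and 427.5 in EV and 519.0, 158.7 and 252.6 in HDAC8 (DESeq2 adjusted p = 0.766), and both overlapped between the groups. The uncoupling proteins proper lie outside the SLC25A symbols. UCP1 had no count, UCP2 had 9.44 normalized counts in EV replicate 1 and 0 elsewhere, and UCP3 did not pass the test (DESeq2 adjusted p = 0.784).

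SLC25A44, which carries branched-chain amino acids into mitochondria, was the 1 amino acid carrier called. SLC25A44 (chromosome 1, 156193932 to 156212796, plus strand) had 1777.4, 1797.8 and 1905.2 normalized counts in EV and 1197.1, 1221.8 and 1123.8 in HDAC8. Both groups were tight and far apart. The mean was 1826.8 ± 68.7 against 1180.9 ± 51.0 (SD, n = 3). This is -0.63 on the log2 scale (95% interval -0.98 to -0.28, SE 0.18, DESeq2 adjusted p = 0.00526). With fewer libraries it dropped just past the threshold, at a DESeq2 adjusted p of 0.0727 without EV replicate 3 and 0.0617 without HDAC8 replicate 3.

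The aspartate/glutamate carriers, which serve the malate-aspartate shuttle, did not pass the test. SLC25A13 had 3493.9, 3109.1 and 3022.4 normalized counts in EV and 3115.9, 3642.9 and 3381.2 in HDAC8 (log2 fold change 0.08, 95% interval -0.23 to 0.38). SLC25A12 had 925.9, 750.9 and 918.0 in EV and 810.6, 844.9 and 907.1 in HDAC8 (log2 fold change -0.02, 95% interval -0.45 to 0.42). For both, a change of the called size was outside the interval, and SLC25A13 was the more abundant form in every library, with a log2 ratio of SLC25A12 to SLC25A13 between -2.43 and -2.04. The glutamate carrier SLC25A22 had 687.3, 798.5 and 446.0 normalized counts in EV and 502.5, 522.3 and 534.7 in HDAC8. Its paralog SLC25A18 was low, at 70.3, 43.9 and 100.5 in EV and 65.0, 16.4 and 40.3 in HDAC8. Neither passed the test (DESeq2 adjusted p = 0.614 and 0.644), and the groups overlapped for both. The ornithine carrier SLC25A15 of the urea cycle had 243.3, 235.4 and 378.3 in EV and 316.4, 327.7 and 374.6 in HDAC8 (DESeq2 adjusted p = 0.786). SLC25A29, a carrier of basic amino acids, had 1910.6, 2236.8 and 1819.5 in EV and 3026.5, 1532.1 and 1761.9 in HDAC8 (DESeq2 adjusted p = 0.918). Its HDAC8 replicate 1 was the highest library and the other HDAC8 libraries were the lowest. SLC25A38, which supplies glycine for heme synthesis, ran from 498.1 to 703.3 in EV and from 588.9 to 682.8 in HDAC8 (DESeq2 adjusted p = 0.919).

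The di- and tricarboxylate carriers that connect the citric acid cycle to the cytosol gave 0 calls among 4 members, where 11% of all genes were called. Their median log2 fold change was 0.31. SLC25A1, the citrate carrier that exports carbon for fatty acid synthesis, had 1480.6, 1961.3 and 1298.4 normalized counts in EV and 2137.7, 1944.9 and 1830.5 in HDAC8. EV replicate 2 lay within the HDAC8 range, and the log2 fold change was 0.32 (95% interval -0.08 to 0.72, DESeq2 adjusted p = 0.368). SLC25A11, the oxoglutarate/malate carrier, had 1070.6, 1621.3 and 1180.2 in EV and 1783.7, 1533.2 and 1481.0 in HDAC8 (log2 fold change 0.31, 95% interval -0.11 to 0.73). SLC25A10, the dicarboxylate carrier, had 574.6, 920.9 and 554.6 in EV and 986.8, 711.8 and 585.9 in HDAC8 (log2 fold change 0.16, 95% interval -0.43 to 0.74). For each of these carriers EV replicate 2 was the highest EV library and lay within the HDAC8 range. SLC25A21, which carries oxoadipate, did not exceed 14.6 normalized counts in EV or 19.5 in HDAC8.

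The iron and glutathione carriers included the 1 carrier that rose. SLC25A37 encodes mitoferrin-1, which imports iron for heme and iron-sulfur clusters and is best known in red blood cell precursors. SLC25A37 (chromosome 8, 23528956 to 23575463, plus strand) had 3640.7, 3317.3 and 3215.5 normalized counts in EV and 4819.2, 5591.9 and 5042.9 in HDAC8. Each HDAC8 library was above each EV library. The mean was 3391.2 ± 222.1 against 5151.3 ± 397.6 (SD, n = 3). This is 0.60 on the log2 scale (95% interval 0.32 to 0.89, SE 0.15, DESeq2 adjusted p = 6.53e-04). It lay just past the fold change minimum, and fell to 0.56 without EV replicate 3 and to 0.54 without HDAC8 replicate 2, where it was not called although the adjusted p stayed under 0.05 (DESeq2, 0.0277 and 0.00965). Its paralog SLC25A28, mitoferrin-2, which serves most other tissues, had 455.1, 355.8 and 530.0 in EV and 347.2, 353.3 and 526.0 in HDAC8 (log2 fold change -0.13, 95% interval -0.76 to 0.50, DESeq2 adjusted p = 0.901). The log2 ratio of SLC25A37 to SLC25A28 was 1.38, 1.60 and 0.99 in EV and 2.18, 2.37 and 1.65 in HDAC8, so mitoferrin-1 was the more abundant form in every library. The groups differed by 0.74 and did not overlap (exact two-sided permutation p = 0.1, the smallest possible, adjusted 0.48). Of the 12 pairs, this one and that of SLC25A4 with SLC25A5 had groups that did not overlap. The pairs not described one by one differed by -0.75 to 0.67 between the groups, with exact permutation p from 0.2 to 0.8.

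SLC25A39 and SLC25A40 bring glutathione into the matrix. SLC25A39 had 2963.3, 3509.7 and 2534.7 normalized counts in EV and 2579.8, 2098.5 and 2393.5 in HDAC8 (log2 fold change -0.35, 95% interval -0.70 to 0.00, DESeq2 adjusted p = 0.216). HDAC8 replicate 1 lay above EV replicate 3, so the groups overlapped. SLC25A40 had 1095.8, 856.4 and 1206.8 in EV and 593.4, 1429.7 and 1047.6 in HDAC8, where replicates 1 and 2 were the lowest and the highest values measured. The log2 fold change was -0.04 (DESeq2 adjusted p = 0.971).

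The carriers of cofactors, nucleotides and acylcarnitine gave 0 calls among the 10 members with an adjusted p, where 11% of all genes were called. Their median change was 0.04 on the log2 scale. SLC25A32, which carries folate and flavin cofactors and is described here because its value rests on 1 library, had 1819.7, 1685.6 and 1689.2 normalized counts in EV and 1598.1, 2958.0 and 2964.2 in HDAC8. HDAC8 replicates 2 and 3 were close to each other and far above EV, and HDAC8 replicate 1 was below every EV library. The log2 fold change was 0.53 (SE 0.23, 95% interval 0.08 to 0.98, DESeq2 adjusted p = 0.112), and without HDAC8 replicate 1 it was 0.77 and SLC25A32 was called (DESeq2 adjusted p = 8.50e-06). SLC25A33 and SLC25A36 carry pyrimidine nucleotides for mitochondrial DNA and RNA synthesis. SLC25A33 had 804.4, 950.1 and 730.7 in EV and 652.8, 604.5 and 700.2 in HDAC8, which did not overlap, but the test was not passed (log2 fold change -0.34, 95% interval -0.81 to 0.12, DESeq2 adjusted p = 0.425). SLC25A36 had 3605.1, 2642.1 and 3499.2 in EV and 2338.6, 3457.5 and 3465.0 in HDAC8, where replicate 1 again stood below the other two (log2 fold change -0.07, 95% interval -0.46 to 0.31).

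SLC25A42 and SLC25A16 are linked to coenzyme A in the matrix. SLC25A42 had 138.4, 249.4 and 116.2 normalized counts in EV and 314.7, 227.4 and 309.3 in HDAC8, the highest fold change among carriers with a mean of at least 50, but the groups overlapped and the interval was wide (log2 fold change 0.76, 95% interval -0.10 to 1.61, DESeq2 adjusted p = 0.296). SLC25A16 had 925.9, 805.1 and 976.3 in EV and 954.3, 923.8 and 945.2 in HDAC8 (log2 fold change 0.06, 95% interval -0.36 to 0.48). Other carriers of this class overlapped between the groups. Log2 fold changes were 0.08 for SLC25A17 of the peroxisome, 0.06 for the carnitine/acylcarnitine carrier SLC25A20, -0.03 for the S-adenosylmethionine carrier SLC25A26 and -0.24 for SLC25A51, which carries NAD. Of these, SLC25A17 and SLC25A26 had intervals within 0.58 of 0.

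Carriers grouped as orphans or poorly assigned gave 0 calls among 7 with an adjusted p, where 11% of all genes were called. Their median change was -0.24 on the log2 scale. SLC25A46, an outer membrane protein that takes part in mitochondrial shape and lipid transfer, had 2173.8, 1513.9 and 1937.7 normalized counts in EV and 1038.9, 1480.9 and 1460.3 in HDAC8. The groups did not overlap, with EV replicate 2 just above the highest HDAC8 library (log2 fold change -0.50, SE 0.22, 95% interval -0.93 to -0.07, DESeq2 adjusted p = 0.121). SLC25A47, a liver carrier, ran from 15.8 to 23.3 normalized counts in EV and from 0 to 13.3 in HDAC8, and at this depth no change was detectable (DESeq2 adjusted p = 0.747). SLC25A34, SLC25A35, SLC25A43, SLC25A45 and SLC25A53 overlapped between the groups, with log2 fold changes from -0.51 to 0.30 and DESeq2 adjusted p from 0.734 to 0.985.

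**Figure D3:**
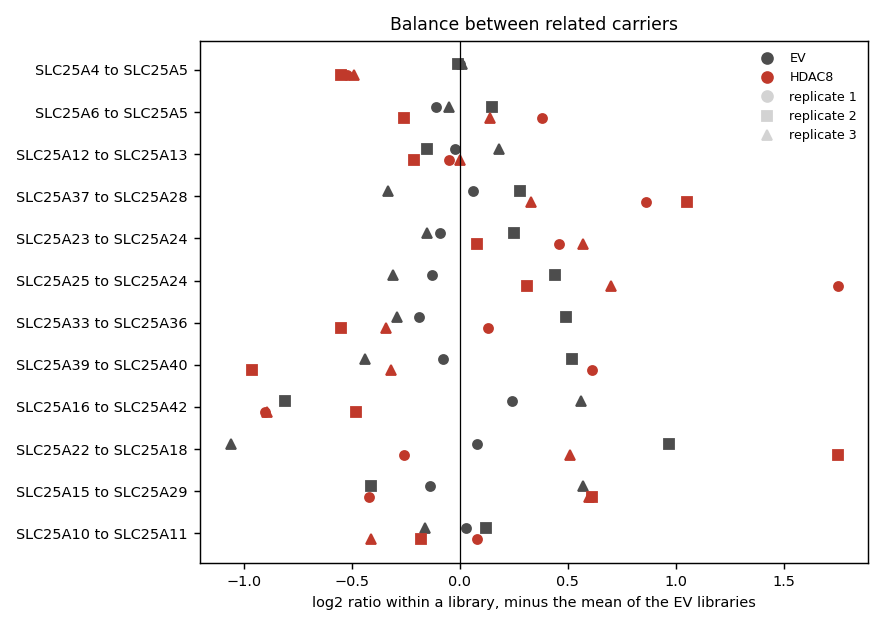
Log2 ratio of 12 pairs of related carriers within each library, minus the mean ratio of the EV libraries (horizontal axis), with colour giving the group and shape the replicate. The HDAC8 points of SLC25A4 to SLC25A5 lie near -0.53 with almost no spread, those of SLC25A37 to SLC25A28 lie above the EV points, and the other pairs overlap.

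Levels were compared between carriers as normalized counts per kilobase of transcript, averaged over the 6 libraries. SLC25A5 led at 9827.3, followed by SLC25A6 at 4100.5, SLC25A39 at 1695.1, SLC25A3 at 1578.6 and SLC25A1 at 1147.0. By this measure SLC25A5 and SLC25A6 stood apart from the rest in every library. It depends on the length of the 1 transcript taken per gene, which was 5984 bases for SLC25A3 and 1451 for SLC25A6. Before division by length, SLC25A3 had more normalized counts than SLC25A6 (mean 9446.3 against 5949.8). SLC25A3 was above SLC25A1 in EV (1876.4 against 1020.7 per kilobase) and about level with it in HDAC8 (1280.8 against 1273.3). This is a description, since no test of it was run. The order from SLC25A39 to SLC25A1 is not resolved, since the neighbours overlapped in at least 1 group. SLC25A37 had 914.2 and lay at 725.9 in EV and 1102.6 in HDAC8, while SLC25A4 lay at 553.5 and 353.8. By this level SLC25A37 ranked 7, SLC25A4 ranked 15, SLC25A44 ranked 16 and SLC25A30 ranked 31 in the family, so the called carriers were spread over the range and none was near the floor.

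**Figure D4:**
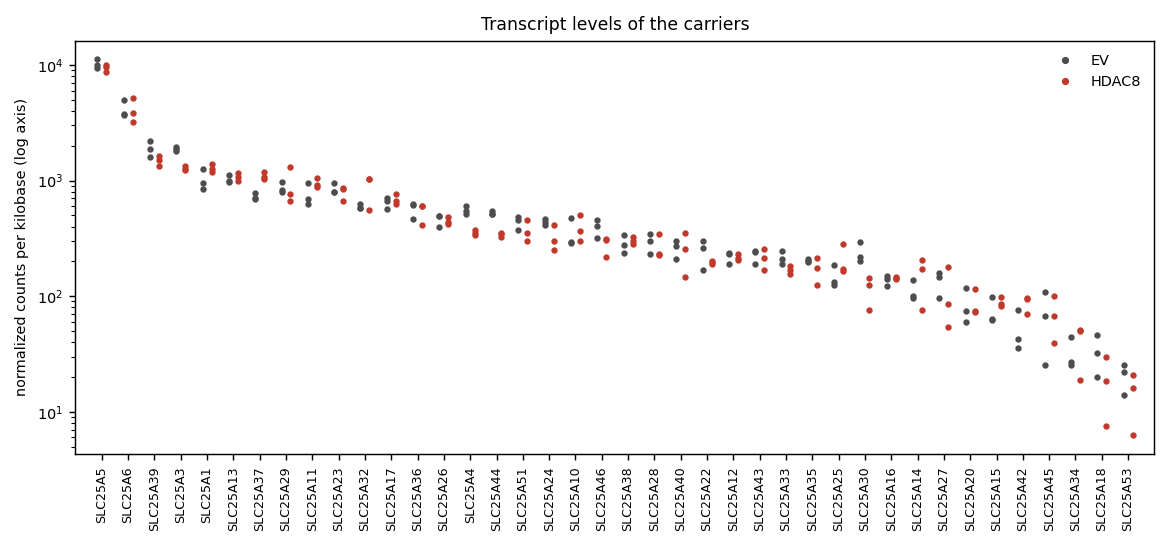
Normalized counts per kilobase of transcript (vertical log axis) of 40 of the 41 carriers with a mean of at least 50 normalized counts, ordered by their mean, with 1 point per library. SLC25A5 and SLC25A6 lead at means of 9827.3 and 4100.5, and EV and HDAC8 points overlap for most carriers.

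Other genes of the same system were read beside the carriers. Of 5 relatives without the SLC25A symbol, 3 had an adjusted p, and MTCH2, an outer membrane protein that inserts other membrane proteins, was called lower. MTCH2 had 1651.5, 1632.5 and 1851.1 normalized counts in EV and 1147.5, 1249.5 and 1020.3 in HDAC8, with no overlap (log2 fold change -0.59, SE 0.19, DESeq2 adjusted p = 0.0197). Of 13 genes that bring carriers to the inner membrane (TOM receptors and pore, small TIM chaperones and the TIM22 complex), 0 were called higher and 1 lower, with a median log2 fold change of 0.30. The shares called higher and lower over all genes were 5.57% and 5.44%. The 1 was TOMM20, a receptor for presequences rather than the main receptor of carriers, at 5217.4 ± 411.1 normalized counts in EV and 2834.1 ± 490.2 in HDAC8 (SD, n = 3, log2 fold change -0.88, SE 0.17, DESeq2 adjusted p = 6.55e-06). TOMM70, the receptor that binds carriers, had a log2 fold change of 0.34 (DESeq2 adjusted p = 0.15). Of 11 other routes for solutes (pyruvate carrier subunits, sideroflexins, VDACs and MCU) 0 were called, with a median of -0.16.

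Enzymes that make or use what the carriers move numbered 25, of which 0 were called higher and 2 lower (5.44% of all genes were called lower), with a median log2 fold change of -0.19 against -0.00 over all genes. MDH1 and SHMT2 were also lower at an adjusted p under 0.05, which 13% of all genes passed, but short of the fold change minimum. Their log2 fold changes were -0.46 and -0.51 (DESeq2 adjusted p = 0.00903 and 0.0156). MTHFD2, the folate enzyme of the mitochondrial matrix, went from 13445.6 ± 659.3 to 7765.1 ± 884.1 normalized counts (SD, n = 3, log2 fold change -0.79, DESeq2 adjusted p = 3.30e-07). Folate enters the matrix through SLC25A32, whose values are given above. ALAS1, the first enzyme of heme synthesis, went from 2039.1 ± 204.5 to 1214.8 ± 220.8 (SD, n = 3, log2 fold change -0.75, DESeq2 adjusted p = 0.00337). Heme synthesis takes iron brought in by SLC25A37, which rose, and glycine brought in by SLC25A38, which did not pass the test. In bulk RNA, fewer cells with a transcript and less of it per cell cannot be told apart.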

How the data were processed

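RNA-seq libraries of WM164 cells were analysed, 3 EV and 3 HDAC8, grouped by the labels. The authors trimmed reads with Trimmomatic, aligned them with STAR and estimated expected counts per gene with RSEM, and the deposited values are these expected counts, not scaled between libraries. An expected count divides a read among genes it could come from, so carriers with pseudogene copies are less certain. Genome build, annotation and use of strand are not given in the sources used here. The labels and the methods name different RNA extraction kits.

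Expected counts were rounded to whole numbers. DESeq2 1.42.0 (R 4.3.3) was fitted to the 26162 genes whose counts summed to 10 or more, without covariates and with the size factors it estimates (0.918 to 1.17). Its two-sided Wald test was used, and p-values were adjusted by Benjamini-Hochberg over the 21021 genes left by its own filtering. A normalized count is a count divided by the size factor. Thresholds (log2 fold change of 0.58 or more in size, adjusted p under 0.05) follow the study's methods. The floor of 3 counts covers counting error only, since reads without molecular identifiers may copy 1 molecule. Pair ratios used counts per kilobase with a pseudocount of 0.5. Positions and transcript lengths came from GENCODE release 44, where 56558 of the 60504 identifiers were found. The length was that of the canonical transcript of the gene, or of the longest where none was marked.

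Values in every library are given for carriers called, carriers past the adjusted p alone, members of 12 paralog pairs and the 5 most abundant carriers; SLC25A32, SLC25A46, SLC25A14, SLC25A27 and SLC25A41 were added after their values were seen, as were the CCAAT and TATAAN motifs. The members and lists were chosen with earlier results of these data known. Same-numbered libraries did not deviate together (correlations -0.027, -0.067 and 0.04 over 14450 genes), so the numbers were not treated as pairs. Within a group, no 2 libraries agreed within sampling noise (chi-square per degree of freedom 26 to 153). The values of 1 carrier and 1 marker are not reported here. The fits were tested on simulated data, 3 libraries against 3, with 200 of 14493 genes changed by 1 on the log2 scale. DESeq2 called 57.5% of the changed genes, edgeR 47% and limma-voom 40%, with 22, 7 and 5 false calls. A carrier that was not called may therefore still have changed. Alternatives were edgeR 4.0.16, limma 3.58.1 (voom), other size factors, filters and thresholds, a fit without mitochondrially encoded genes, a replicate block, and each library left out in turn.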

Additional observations from a re-analysis of the deposited data

How the results depend on the processing

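The counts of 1 carrier called higher and 3 lower, and the same 4 carriers, were obtained with edgeR, limma-voom, all 3 other size factors, both filters, without mitochondrially encoded genes and with a replicate block (1 higher and 3 lower, median log2 fold change -0.03). The numbers did not pair the libraries, so the block is given for completeness. No fold change minimum gave 1 higher and 4 lower. Leaving out each library in turn gave 0 to 2 carriers higher and 2 to 5 lower: 0 higher without EV replicate 3 or HDAC8 replicate 2, 2 higher without HDAC8 replicate 1 (which added SLC25A32), 2 lower without EV replicate 3 or HDAC8 replicate 3, and 5 lower without HDAC8 replicate 2 (which added SLC25A3 and SLC25A24). Fewer libraries enter these fits. Over the named carriers, 394 of 420 alternative values kept direction and side of the threshold, and 93 of 96 for the pairs. The direction turned for carriers near 0 and not called. With total-count size factors SLC25A6 was at 0.04 and SLC25A12 at 0.02. Over the fits with a library left out, log2 fold changes ran from -0.23 to 0.14 for SLC25A6, -0.11 to 0.03 for SLC25A12, -0.20 to 0.09 for SLC25A36, -0.02 to 0.12 for SLC25A16, -0.35 to 0.01 for SLC25A28, -0.36 to 0.23 for SLC25A40, -0.08 to 0.43 for SLC25A10, -0.17 to 0.00 for SLC25A23 and -0.27 to 0.27 for SLC25A29. The difference in log2 ratio ran from -0.06 to 0.26 for SLC25A6 to SLC25A5 and from -0.64 to 0.14 for SLC25A39 to SLC25A40. For these the cause was not tested. The median over the carriers was 0.02 with total-count size factors, against 0.04 over all genes. At this depth the intervals of the low carriers SLC25A18, SLC25A20, SLC25A34, SLC25A45 and SLC25A53 held both 0 and a change of the called size. The same held for carriers with more counts. Examples are SLC25A1 (-0.08 to 0.72), SLC25A11 (-0.11 to 0.73), SLC25A33 (-0.81 to 0.12) and SLC25A40 (-0.62 to 0.54). For such carriers an uncalled result does not show that the transcript was unchanged.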

Other observations

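The table also held 40 pseudogenes with an SLC25A symbol and 5 other non-coding genes. Their counts lie outside those of the carriers, and the sum over the pseudogenes was equal to 0.377% to 0.685% of the sum over the carriers in EV and 0.16% to 0.319% in HDAC8. SLC25A24P1 had 55.0, 23.6 and 68.2 expected counts, not scaled, in EV and none in HDAC8, while its parent SLC25A24 had groups that did not overlap but was not called. SLC25A5P2 was called lower (log2 fold change -1.71, DESeq2 adjusted p = 0.0124), while SLC25A5 was not called. Pseudogene reads can come from the parent transcript, and how the authors' counting divided them was not tested.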
